A study of Mus musculus with 8 samples.

Results

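The exocyst is a tethering complex that holds secretory vesicles at the plasma membrane before they fuse with it. Its 9 genes in the mouse table, *Exoc1*, *Exoc2*, *Exoc3*, *Exoc4*, *Exoc5*, *Exoc6*, *Exoc6b*, *Exoc7* and *Exoc8*, were described here in gastrocnemius (GAS) muscle after knockdown of MYTHO. The rows were selected by gene symbol, and where a gene had several rows the one with the highest mean signal was to be kept. Each of the 9 genes had 1 probe set that named no other gene, so 9 of the 22206 probe sets of the table were used. The complex was picked from the measured values, because *Exoc4* was among the lower genes of this same contrast. The values of *Exoc4* are therefore a description, no p of it is read as support, and the other 8 subunits were read from the fit over all probe sets.

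The muscles came from male C57/Bl6j mice aged 14 weeks, taken 3 weeks after an intramuscular injection of adeno-associated virus (AAV). One leg received a hairpin RNA directed at the *Mytho* transcript (AAV sh-RNA MYTHO, 4 arrays), and the other leg a scrambled hairpin (AAV sh-RNA scrmb, 4 arrays). Both hairpins were driven by a U6 promoter, which is active in any cell the virus enters, and the serotype was AAV1, which favours muscle fibres. The MYTHO virus always went into the right leg, so the side of the body and the hairpin cannot be told apart. The text of the study describes 1 hairpin vector against *Mytho* for these injections, so lowering *Mytho* and any other action of that hairpin cannot be told apart either. Both legs of a mouse carry the same number in the column names, and the 4 mice are called animals A to D.

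In all 8 arrays the markers of fast muscle were at the top of the scale, with a mean log2 signal of at least 16.89 for each of the 10 genes checked, 4 of which reached the ceiling of the scale on at least 1 array. Median log2 signals of the arrays lay between 6.39 and 6.47. On the first principal component, which held 28.2% of the variance, the scrmb array of animal D (-3.31) lay apart from the other scrmb arrays (25.7 to 45.4) and nearer to the MYTHO arrays (-40.4 to -11.7). *Mytho*, listed as D230025D16Rik, read 11.35, 11.31, 10.78 and 11.05 in scrmb muscle, taking animals A to D in turn, and 8.16, 8.20, 8.80 and 8.08 in MYTHO muscle. The groups did not overlap. The log2 fold change (standard error, SE) was -2.81 (0.21), at a limma adjusted p of 0.00044 and, by exact permutation of the group names (two-sided), p = 0.0286, the lowest that the 70 exchanges of names over all 8 arrays can give. Those exchanges ignore that the legs are paired, and exchanging names only within animals gave an exact permutation p of 0.125, the lowest of its 16 exchanges.

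The exocyst is built from 2 subassemblies of 4 subunits each. EXOC1 to EXOC4 (Sec3, Sec5, Sec6 and Sec8 in yeast) form the first, and EXOC5 to EXOC8 (Sec10, Sec15, Exo70 and Exo84) form the second, in which EXOC6 and EXOC6B are alternative versions of the same subunit. EXOC1 and EXOC7 bind phosphoinositides of the plasma membrane, EXOC2 and EXOC8 bind the GTPase Ral, and EXOC6 binds Rab GTPases on the vesicle. In muscle and fat, the complex takes part in the delivery of the glucose transporter GLUT4 to the cell surface, and Ral with exocyst subunits has also been linked to the start of autophagy.

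The 9 genes lie at separate loci, given here in the RefSeq coordinates of GRCm38.p6. *Exoc4* spans chromosome 6 from 33249090 to 33973979, a length of 724890 bases, the longest of the 9. *Exoc6b* is on the same chromosome, from 84618486 to 85070258. *Exoc2* (30789516 to 30974096) and *Exoc3* (74169802 to 74210032) share chromosome 13. *Exoc1* is on chromosome 5 from 76529307 to 76570298, *Exoc5* on chromosome 14 from 49011922 to 49066667, and *Exoc6* on chromosome 19 from 37536763 to 37684052. *Exoc7* is on chromosome 11 from 116287997 to 116306750. *Exoc8*, the shortest at 7407 bases, is on chromosome 8 from 124890299 to 124897705.

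The promoter windows of *Exoc4* and *Exoc3* are shown because these subunits had the lowest and the highest log2 fold change of the complex. Each window runs from 250 bases before to 50 bases after a transcript start taken from RefSeq promoters on GRCm38.p6, the first one given there for the gene. That start need not be the outer end of the gene: it lies 38 bases inside *Exoc4*, at 33249128, and 1332 bases inside *Exoc3*, at 74208700. The window of *Exoc4* is chr6:33248878-33249177 on the plus strand, and that of *Exoc3* is chr13:74208651-74208950 on the minus strand. Capitals mark every match to the motifs searched for.
Exoc4: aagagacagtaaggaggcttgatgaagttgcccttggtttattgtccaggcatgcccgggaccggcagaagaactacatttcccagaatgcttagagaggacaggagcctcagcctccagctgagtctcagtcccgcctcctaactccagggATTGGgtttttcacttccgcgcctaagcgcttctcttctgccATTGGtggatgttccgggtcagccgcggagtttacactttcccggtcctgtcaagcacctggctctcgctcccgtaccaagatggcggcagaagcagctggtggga
Exoc3: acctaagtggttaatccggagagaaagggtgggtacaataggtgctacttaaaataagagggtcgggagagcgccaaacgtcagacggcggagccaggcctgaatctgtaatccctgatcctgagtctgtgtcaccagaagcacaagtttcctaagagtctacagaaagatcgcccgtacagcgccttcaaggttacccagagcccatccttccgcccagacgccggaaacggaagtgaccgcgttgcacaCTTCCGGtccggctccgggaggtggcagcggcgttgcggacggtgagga

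Both strands were searched. The *Exoc4* window held 2 matches to CCAAT, both on the opposite strand, which begin 98 and 56 bases before that start, and no match to the other motifs. The only other subunit with this motif was *Exoc1*, while 37.9% of all 27025 promoters held it. The *Exoc3* window held 1 match to CCGGAAG, a core of the sites of ETS factors, as did those of *Exoc1* and *Exoc5*, and 9.12% of all promoters held it. CACGTG, the core of the sites bound by TFEB and related factors, was in the window of *Exoc1* alone, against 7.24% of all promoters. The FoxO motif GTAAACA was in the windows of none of the 9 subunits and in 3.55% of all promoters. The TATA box, searched as TATAAA, was also in none, against 14.2%, as was the motif of nuclear respiratory factor 1, against 0.977%. A match is a description of the letters only. The first window of each subunit held between 13 and 39 CpG pairs, and the median over all promoters was 7.

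*Exoc4*, whose protein is the Sec8 subunit of the first subassembly, was lower in the MYTHO leg of every animal. Scrmb muscle read 14.60, 15.05, 14.87 and 14.31 on the log2 scale, taking animals A to D in turn, and MYTHO muscle read 13.29, 13.04, 13.27 and 13.13. The lowest scrmb array, that of animal D, was still above the highest MYTHO array, that of animal A, so the groups did not overlap. The differences between the legs, MYTHO minus scrmb, were -1.31, -2.01, -1.60 and -1.18 on the log2 scale. The log2 fold change was -1.52 with an SE of 0.20, which left 34.7% of the scrmb signal. The arrays of the scrmb group were more spread, with an SD of 0.32 (n = 4), than those of the MYTHO group, with an SD of 0.12 (n = 4), a difference that was not tested. Of all probe sets, 0.18% had a lower log2 fold change. Since muscle pieces were measured whole, fewer cells that express a gene and less RNA per cell cannot be told apart, for *Exoc4* and for every gene below.

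The other 3 subunits of the first subassembly had log2 fold changes of -0.05, -0.04 and 0.36. *Exoc1*, the Sec3 subunit that contacts the membrane, was at 7.71, 7.59, 7.27 and 7.34 in scrmb and at 7.81, 7.44, 7.01 and 7.44 in MYTHO. MYTHO A was the highest and MYTHO C the lowest of the 8 arrays, and the groups overlapped fully, with a limma adjusted p of 0.949. *Exoc2*, the Sec5 subunit that binds Ral, was at 11.51, 11.46, 11.39 and 11.25 in scrmb and at 11.34, 11.64, 11.40 and 11.08 in MYTHO, again with full overlap and a limma adjusted p of 0.959.

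*Exoc3*, the Sec6 subunit, had the highest log2 fold change of the complex. Its log2 signal was 9.86, 9.81, 9.46 and 9.75 in scrmb and 9.93, 10.63, 9.96 and 9.82 in MYTHO. The MYTHO leg was above the scrmb leg in 4 of 4 animals, by 0.07, 0.82, 0.50 and 0.07 on the log2 scale. The log2 fold change of 0.36 (SE 0.21) did not pass, with a limma adjusted p of 0.517, and it was 0.18 without the MYTHO array of animal B.

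In the second subassembly the log2 fold changes of the 5 genes ran from -0.12 to 0.14. *Exoc5*, the Sec10 subunit, was at 9.78, 10.00, 9.98 and 9.37 in scrmb and at 10.02, 9.83, 10.21 and 9.64 in MYTHO. The lowest values of both groups came from animal D, and the limma adjusted p was 0.828. *Exoc6*, the Sec15 subunit that binds Rab GTPases, was at 12.34, 12.24, 12.16 and 12.10 in scrmb and at 12.40, 12.63, 12.30 and 12.04 in MYTHO, with a limma adjusted p of 0.817. *Exoc6b*, its alternative version, was at 9.86, 9.89, 10.11 and 10.11 in scrmb and at 9.65, 10.01, 9.71 and 10.11 in MYTHO, with a limma adjusted p of 0.833. The log2 fold changes of this pair, 0.13 and -0.12, had opposite signs and were each smaller than their SE of 0.18.

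*Exoc7*, the Exo70 subunit that anchors the complex to the membrane, was at 8.79, 8.53, 8.37 and 9.37 in scrmb and at 8.82, 8.47, 8.25 and 9.33 in MYTHO. Here the animals differed more than the groups. Both legs of animal D were highest and both legs of animal C lowest, and the legs of 1 animal were at most 0.12 apart on the log2 scale. The log2 fold change of *Exoc7* was -0.05 with an SE of 0.28, or of 0.17 with animal as a block. *Exoc8*, the Exo84 subunit and a second partner of Ral, was at 7.92, 7.98, 8.50 and 8.08 in scrmb and at 7.61, 8.01, 8.56 and 8.39 in MYTHO, at 0.02 in log2 fold change (limma adjusted p 0.984).

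**Figure D1:**
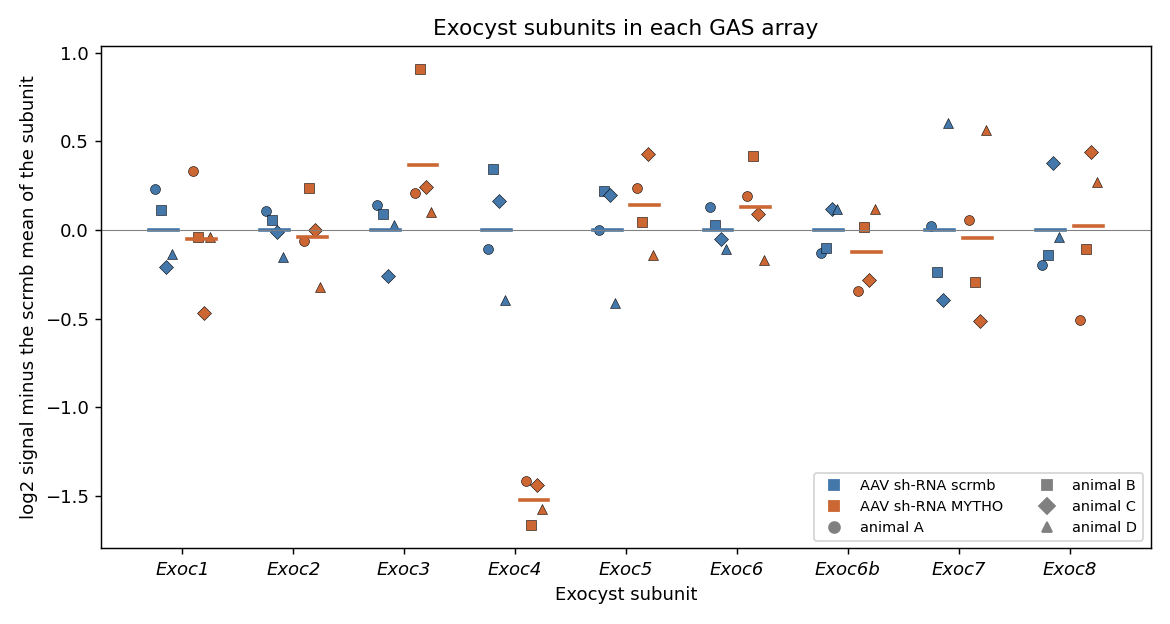
Log2 signal of each exocyst subunit (horizontal axis) on each of the 8 arrays, minus the mean of the 4 scrmb arrays of that subunit (vertical axis, log2 units), with blue for scrmb, orange for MYTHO, 1 marker shape per animal and a line at each group mean. The orange points of *Exoc4* lie near -1.52 and apart from its blue points, while for the other 8 subunits the colours overlap.

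Set against the share of all probe sets, 1 of the 9 subunits, *Exoc4*, was lower at an unadjusted limma p under 0.05, a rule that 7.58% of all probe sets met, and none was higher, where 4.81% did. *Exoc4* was also the only subunit lower by at least 2-fold at that p (1.25% of all probe sets) and the only one whose groups did not overlap with lower values in MYTHO (3.87%). Because this contrast picked *Exoc4*, nothing is read from these counts. The limma adjusted p of *Exoc4* was 0.0373, and with animal as a block it was 0.156, past the threshold no longer. Without single arrays that limma adjusted p was under 0.05 only without scrmb D (0.0191) and ran up to 0.218, without scrmb B. Among the other 8, limma gave 0 at an adjusted p under 0.05 (0.027% of all probe sets, either direction) and 0 at an unadjusted p under 0.05 (12.4%). With animal as a block limma also gave 0 and 0 among these 8, with a lowest adjusted p of 0.490. None of the 8 had groups without overlap (6.46% of all, either direction). Their log2 fold changes were above 0 in 4 and below 0 in 4, with a median of -0.01, and the median over all probe sets was also -0.01.

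The precision of the 8 other subunits is given by the 95% intervals of their log2 fold changes, first from the fit that ignores the pairing of the legs. All 8 intervals lay within 2-fold in either direction, from -0.65 at the lowest bound, for *Exoc7*, to 0.83 at the highest, for *Exoc3*. For *Exoc2*, the Ral-binding subunit, the interval ran from -0.43 to 0.35. For *Exoc1* it ran from -0.50 to 0.40, for *Exoc5* from -0.30 to 0.59, for *Exoc6* from -0.26 to 0.52, for *Exoc6b* from -0.51 to 0.27 and for *Exoc8* from -0.49 to 0.53. With animal as a block the bounds of the 8 ran from -0.54, for *Exoc6b*, to 0.82, for *Exoc3*. The interval of *Exoc7* was then -0.44 to 0.35, and 4 of the 8 lay within 0.5 of 0, those of *Exoc1*, *Exoc2*, *Exoc7* and *Exoc8*, against that of *Exoc2* alone without the block.

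The same contrast within each animal set *Exoc4* apart from the other subunits by a similar size. The mean log2 signal of the other 8 differed between the legs by -0.02, 0.14, 0.02 and 0.06 in animals A to D. For *Exoc4* minus this mean, the differences between the legs were -1.29, -2.15, -1.62 and -1.24 on the log2 scale, with an average of -1.57. Of the 32 single differences of the other subunits, none exceeded 1 in size, and the largest was 0.82, for *Exoc3* in animal B. As a level, *Exoc4* minus the other 8 has no meaning between probe sets, so only its change is given, and it was not tested because *Exoc4* was picked from it.

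**Figure D2:**
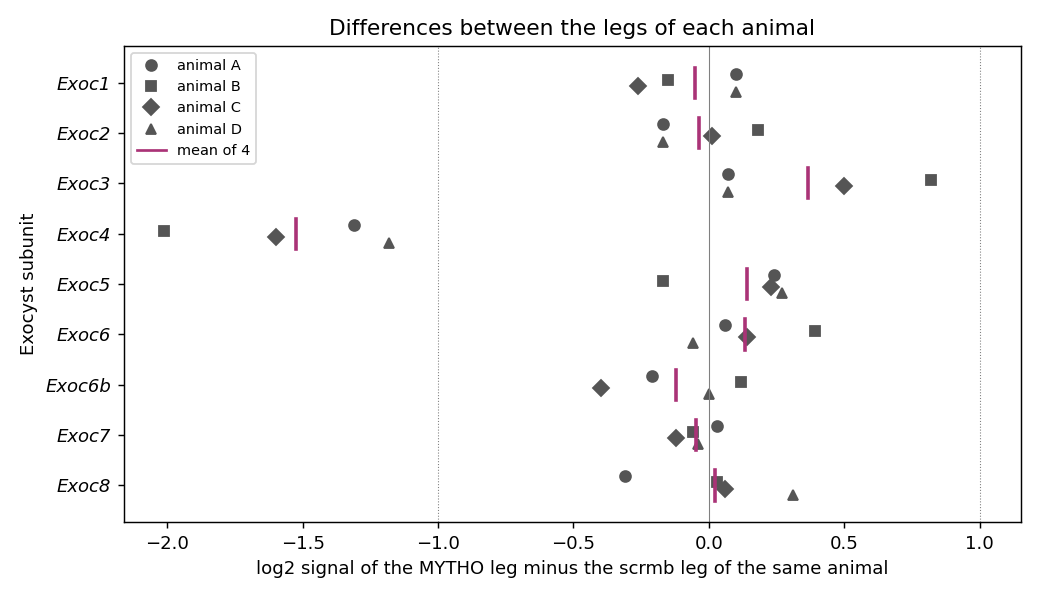
Log2 signal of the MYTHO leg minus the scrmb leg of the same animal (horizontal axis, log2 units) for each exocyst subunit (vertical axis), with 1 marker per animal, a purple line at the mean of the 4 animals and dotted lines at 2-fold. The 4 markers of *Exoc4* lie between -2.01 and -1.18, and the 32 markers of the other subunits lie within 0.82 of 0.

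Within the groups the subunits had no common pattern over the arrays. The correlation of the deviations from the group means, over 8 arrays that share animals in pairs, ran from -0.887 (*Exoc1* with *Exoc8*) to 0.957 (*Exoc2* with *Exoc6*) over the 36 pairs, with a median of -0.037, and 18 pairs were above 0. Among the pairs of *Exoc2*, *Exoc3* and *Exoc6* it was 0.774 or more. The MYTHO array of animal B was the highest of the 8 arrays for each of these genes (11.64, 10.63 and 12.63), and the correlations were not recomputed without it. *Exoc4* was nearest to *Exoc5* (0.849) and farthest from *Exoc7* (-0.624). These are descriptions of 8 arrays, and genes in 1 array share its RNA and scaling.

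Other tissue in the sample was followed through lists of marker genes. Slow-fibre genes had log2 fold changes above 0 in 8 of 8, 7 of them at an unadjusted limma p under 0.05 (4.81% of all probe sets were higher at that p). Limma called 0 of these 8 at an adjusted p under 0.05, and the groups overlapped for every one. The mean log2 signal of this list in animals A to D was 13.74, 12.08, 12.02 and 11.67 in scrmb and 14.88, 14.54, 14.74 and 11.76 in MYTHO. The legs were farthest apart in animals B and C and nearest in animal D, where this list read 11.67 in scrmb and 11.76 in MYTHO. The *Exoc4* differences of animals A to D were -1.31, -2.01, -1.60 and -1.18, and whether they follow the slow-fibre list was not tested. Of the 10 fast muscle genes 1 was higher at an unadjusted limma p under 0.05. This was *Myh1*, a fast myosin heavy chain gene named after its values were seen, with a log2 fold change of 0.70 (limma adjusted p 0.295). It was higher in 4 of 4 animals with overlapping groups. Of the 10, 4 reached the ceiling of the scale on at least 1 array, and a change in genes at or near it could be hidden. Endothelial genes were also above 0 in 6 of 6, 2 of them at an unadjusted limma p under 0.05 and 0 at an adjusted p under 0.05. Their list mean did not overlap, from 9.36 to 9.72 in scrmb and from 9.90 to 10.11 in MYTHO. Of the 5 fibroblast genes 2 had log2 fold changes above 0, and 1 was lower at an unadjusted limma p under 0.05 (7.58% of all probe sets). This was *Dcn*, the gene for the matrix protein decorin, named after its values were seen, at a log2 fold change of -0.59 (limma adjusted p 0.236). It was lower in 4 of 4 animals and without overlap (3.87% of all probe sets). The part of these fibre and cell types in the values of *Exoc4* was not tested. The ranges of the list means overlapped between the groups for macrophage (6.62 to 6.95 and 6.69 to 6.97), fibroblast (10.78 to 10.96 and 10.54 to 11.18), adipocyte (5.44 to 8.76 and 5.77 to 10.26), Schwann cell (6.16 to 7.84 and 6.16 to 6.93) and red blood cell genes (10.95 to 12.57 and 11.66 to 13.45).

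Around the complex, 61 genes in 8 lists were examined, of which 60 had a probe set and *Exoc1l* had none. Limma called 0 of the 60 at an adjusted p under 0.05. The unadjusted p was under 0.05 for *Rab11b*, which was higher, and for *Rhoq*, which was lower, so for 2 genes or 3.33% of the 60 against 12.4% of all probe sets. With animal as a block 3 were higher at that p, *Rab11b*, *Tnfaip2* and *Myo1c*, and 1 lower, *Rhoq*. In that fit 12.6% of all probe sets were past this p, 4.94% higher and 7.66% lower. Groups did not overlap for 5 of the 60, or 8.33%, against 6.46% of all probe sets.

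Both genes past the unadjusted p belonged to the list of small GTPases that bring the exocyst to vesicles or to the membrane. *Rab11b* encodes a GTPase of recycling endosomes that binds the EXOC6 subunit. It was at 13.34, 13.09, 12.80 and 13.46 in scrmb and at 14.25, 14.23, 13.85 and 13.66 in MYTHO, higher in 4 of 4 animals and without overlap, where 2.59% of all probe sets were higher without overlap. Its log2 fold change was 0.82 with an SE of 0.21, and it did not pass the adjustment (limma adjusted p 0.155).

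*Rhoq* encodes TC10, which binds EXOC7 in the insulin response of fat cells. It was at 12.31, 12.46, 12.93 and 12.80 in scrmb and at 12.10, 12.15, 11.37 and 11.89 in MYTHO, lower in 4 of 4 animals and without overlap, where 3.87% of all probe sets were lower without overlap. Its log2 fold change was -0.75 with an SE of 0.22 and a limma adjusted p of 0.213. The remaining 10 genes of this list, among them *Rab11a* (-0.06), *Rab10* (-0.08), *Rab8a* (-0.12), *Cdc42* (0.01), *Arf6* (-0.12) and the lipid kinase gene *Pip5k1c* (0.24, or 0.15 without scrmb B), did not pass in log2 fold change.

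Of the 12 genes of Ral and its regulators none passed, and the median log2 fold change was -0.07. *Rala* and *Ralb*, the GTPases themselves, were at -0.28 (SE 0.19) and -0.09 (SE 0.17). The largest log2 fold changes were those of *Ralgds*, an activator of Ral, at 0.41, and of the genes for its inhibitory complex, *Ralgapa2* at 0.40 (0.15 without MYTHO A) and *Ralgapa1* at -0.30. *Ralgapa1* was below the scrmb leg in 4 of 4 animals, with a limma adjusted p of 0.494.

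Of the 4 exocyst-like paralogs measured none passed. *Tnfaip2*, a relative of *Exoc3* known from endothelial and myeloid cells, had a log2 fold change of 0.66 (0.41 without scrmb C), was higher in 3 of 4 animals and had a limma adjusted p of 0.420. *Exoc3l2* had a log2 fold change of -0.29 (-0.16 without scrmb B, -0.17 without MYTHO B) and *Exoc3l* of 0.11. The mean log2 signals of *Exoc3l2* (3.99), *Exoc3l* (3.84) and the paralog *Exoc3l4* (3.98) lay below the array medians. Whether these probe sets were above background was not tested.

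None of the 8 genes of the SNARE machinery passed, which fuses the vesicle once the exocyst has tethered it, and their median was -0.06 in log2 fold change. *Vamp3* at -0.39 (-0.26 without MYTHO B), *Stxbp3*, which encodes the syntaxin 4 partner Munc18c, at -0.36 and *Snap23* at -0.32 were each lower in 4 of 4 animals, with limma adjusted p from 0.435 to 0.465. The groups of *Snap23* (13.41 to 13.68 in scrmb and 13.08 to 13.33 in MYTHO) and of *Stxbp3* (10.98 to 11.32 and 10.55 to 10.95) did not overlap, where 3.87% of all probe sets were lower without overlap. Their unadjusted limma p were 0.0779 and 0.0644, and the legs of animal D differed by only -0.08 and -0.04.

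None of the 8 genes of GLUT4 vesicles passed, and their median was 0.04 in log2 fold change. *Slc2a4*, the gene for GLUT4, was at 11.72, 10.82, 11.34 and 12.06 in scrmb and at 11.54, 12.08, 11.90 and 11.89 in MYTHO, higher in 2 of 4 animals, with a log2 fold change of 0.37 that was 0.15 without scrmb B and 0.56 without scrmb D. *Myo1c*, a motor of these vesicles, was at 0.48 in log2 fold change (0.26 without scrmb C) and *Sort1*, the sorting receptor sortilin, at -0.44 (-0.22 without MYTHO B). *Lnpep*, the aminopeptidase that travels with GLUT4, was named after its values were seen, because it was the gene of this list whose groups did not overlap, from 12.15 to 12.44 in scrmb and from 12.55 to 12.68 in MYTHO, with a limma adjusted p of 0.409. Of all probe sets, 2.59% were higher without overlap.

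Other tethering complexes of related architecture had none of their 16 genes past the unadjusted p. The COG complex of the Golgi had 8 genes with log2 fold changes from -0.21 for *Cog8*, whose probe set also names *Pdf*, to 0.39 for *Cog4* (0.23 without MYTHO B). The GARP and EARP complexes, which tether vesicles at the Golgi and at endosomes, had 5 genes from -0.35 for *Vps50* to 0.20 for *Vps52* (0.02 without scrmb C, 0.05 without MYTHO C, 0.34 without scrmb D), with *Vps54* at -0.35. Without single arrays *Vps50* ran from -0.59 (without MYTHO D) to -0.21 (without scrmb A), and *Vps54* was -0.19 without scrmb C and -0.21 without MYTHO C. The NRZ complex of the endoplasmic reticulum had 3 genes, *Nbas* at -0.32 (-0.16 without MYTHO A, -0.51 without MYTHO B), *Zw10* at -0.09 and *Rint1* at 0.10.

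**Figure D3:**
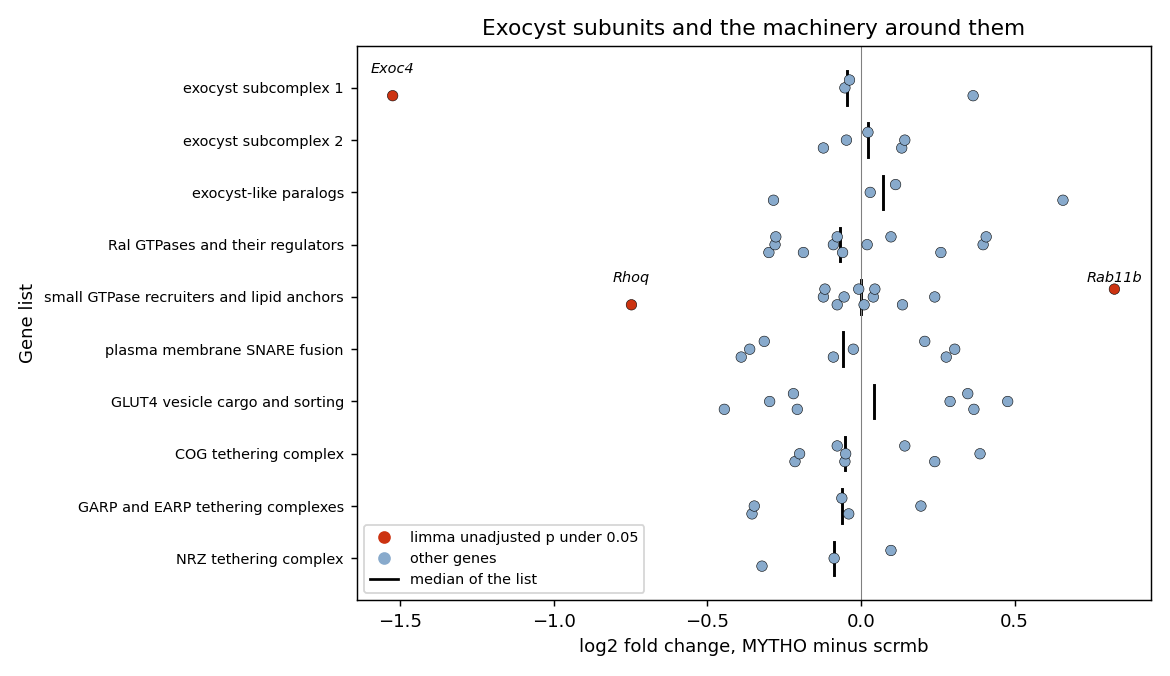
Log2 fold change, MYTHO minus scrmb (horizontal axis), of every measured gene in the 2 exocyst subassemblies and the 8 lists around them (vertical axis), with red for an unadjusted limma p under 0.05, blue for other genes and a black line at the median of the list. *Exoc4* lies at -1.52, *Rhoq* at -0.75 and *Rab11b* at 0.82, and the medians of all 10 lists lie between -0.09 and 0.07.

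The genes that flank *Exoc4* on chromosome 6 were examined for its position. On the side before *Exoc4*, *Chchd3*, a gene of the mitochondrial inner membrane 188.8 kb away, had a log2 fold change of 0.11 and *Plxna4*, a semaphorin receptor gene, of 0.20 (0.07 without MYTHO D, 0.33 without scrmb D), while 1700012A03Rik was at -0.32, lower in 4 of 4 animals, and none passed. The mean log2 signals of *Plxna4* (5.77) and 1700012A03Rik (4.96) lay below the array medians, and whether they were above background was not tested. On the side after it, *Slc35b4*, a sugar transporter gene, and *Akr1b3*, which encodes aldose reductase and shares its probe set with Gm6644, were at 0.03 and 0.21 and did not pass. *Akr1b3* ran from 0.07 without scrmb C to 0.32 without scrmb D.

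*Lrguk*, a gene known from sperm development, starts 55.3 kb after the end of *Exoc4* and, like 1700012A03Rik, was lower in 4 of 4 animals. Its log2 signal was 4.69, 4.70, 4.93 and 4.67 in scrmb and 4.30, 4.19, 4.31 and 4.39 in MYTHO, without overlap, where 3.87% of all probe sets were lower without overlap. These signals lay below the array medians, only 12.1% of probe sets had a lower mean, and whether the probe set was above background was not tested. The log2 fold change of *Lrguk* was -0.45 with an SE of 0.16, an unadjusted limma p of 0.0166 and a limma adjusted p of 0.290. Of all probe sets, 7.58% were lower at an unadjusted limma p under 0.05. RefSeq also lists the pseudogene Gm1401 (33247268 to 33249073), which ends just before *Exoc4* and overlaps the promoter window shown above, and inside *Exoc4* the pseudogene Gm13854 and the long noncoding RNA Gm38785. These 3 had no probe set of their own here.

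The genes whose log2 signals followed *Exoc4* most closely were taken among 18898 named genes, each with 1 probe set that names no other gene and no saturated value. Over the levels of the 8 arrays these were *Trappc6b* (Pearson r 0.978), *Olfr330* (0.977), *Ttc37* (0.970), *Mrgpra2a* (0.969) and *Vdac2* (0.966). Such an r mostly follows the gap between the groups, which chose *Exoc4*, so it is a description. *Trappc6b*, a subunit of the TRAPP tethering complex, was at 11.43, 11.45, 11.58 and 11.34 in scrmb and at 10.75, 10.73, 10.71 and 10.63 in MYTHO, with a log2 fold change of -0.74. *Ttc37*, whose protein assists the RNA exosome, had one of -1.19, *Mrgpra2a* and *Olfr330*, both receptor genes of sensory neurons, -1.11 and -0.95, and *Vdac2*, a channel of the mitochondrial outer membrane, -0.14. So near-equal correlations went with differences of unequal size. *Mrgpra2a* had a mean log2 signal of 5.73, below the array medians, and *Olfr330* one of 6.79, close to them. Whether either probe set was above background was not tested.

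Over the deviations from the group means, in which the gap between the groups plays no part, the 5 nearest genes were other ones. They were *Pxdn* (r 0.986), *Prr32* (0.985), *Rock1* (0.985), *Fmnl2* (0.979) and *Arhgap36* (0.973). *Rock1*, a protein kinase gene, and *Fmnl2*, a formin that builds actin filaments, had log2 fold changes of -0.25 and -0.29. *Pxdn*, a peroxidase of the extracellular matrix, was at 0.64 in log2 fold change, opposite in sign to *Exoc4*, and *Prr32* and *Arhgap36* were at -0.42 and -0.03. The mean log2 signals of *Prr32* (4.58) and *Arhgap36* (4.64) lay below the array medians, and whether they were above background was not tested.

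**Figure D4:**
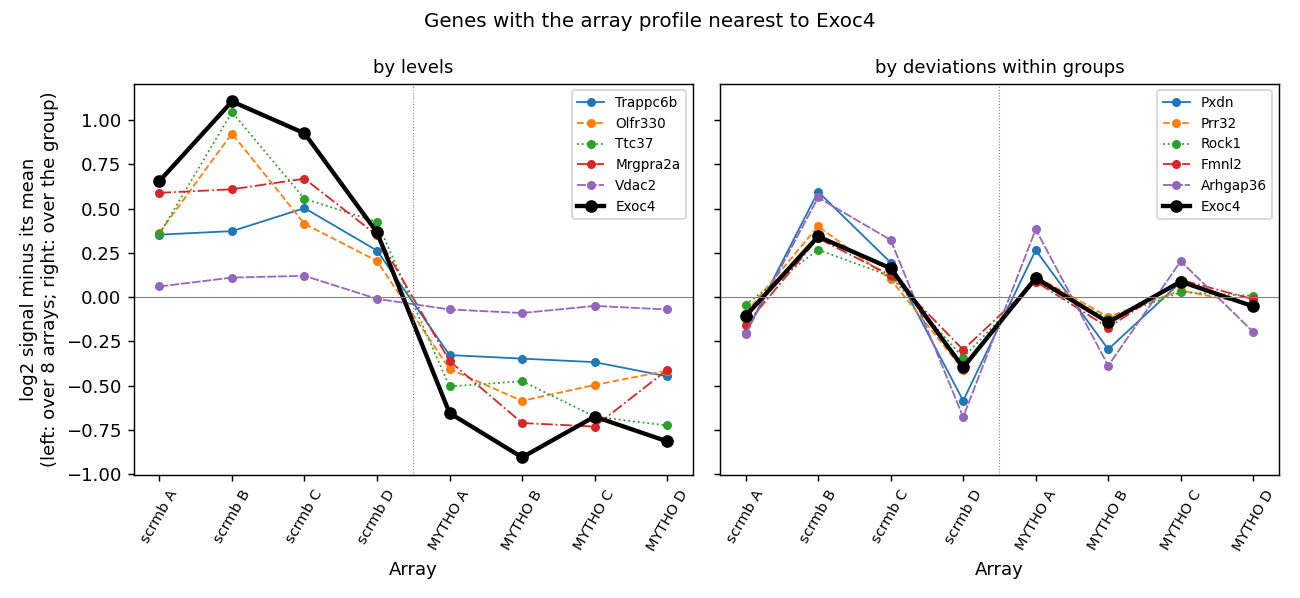
Log2 signal on each array (horizontal axis) of *Exoc4* (black) and of the 5 genes nearest to it, minus the mean over the 8 arrays (left, chosen over levels) or minus the mean of the group (right, chosen over deviations), in log2 units on the vertical axis. On the left the 6 genes drop between scrmb and MYTHO by unequal amounts, from 0.14 for *Vdac2* to 1.52 for *Exoc4*, and on the right scrmb B is highest and scrmb D lowest among the scrmb arrays for all 6.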

How the data were processed

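Clariom S Mouse arrays of total RNA from GAS muscle were analysed, 4 per group. The authors deposited log2 signals per probe set from the Transcriptome Analysis Console version 4.0.1 with default settings. Per the file headers these are gene-level SST-RMA values on mm10, which are background corrected, quantile normalized and summarised, and signals of different probe sets are not comparable. The deposited log2 signals stop at a common ceiling, and 18 of the 22206 probe sets reached this on all 8 arrays. The table also holds group averages, fold changes, p-values and false discovery rates of the authors, which were not used.

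All probe sets were fitted in limma 3.58.1 under R 4.3.3 (lmFit, eBayes, MYTHO minus scrmb, no block), after the study's methods, which name eBayes for the arrays and do not state whether legs were paired, two-sided, with Benjamini-Hochberg adjustment over all probe sets, and the script was tested on simulated data.

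The members, gene lists and tests were chosen with earlier results of these data known, and the promoter motifs after the values were seen. Named genes were all subunits, the targeted gene and, per list, every gene at an unadjusted p under 0.05 and otherwise the largest log2 fold changes up to 3, with 3 neighbours per side and 5 most similar genes per measure. Other list genes were named for their role, after their values were seen. List genes were matched by the symbols of the file (119 of 120). Coordinates and promoters came from RefSeq on GRCm38.p6, the same assembly as mm10, and all 9 subunits had a promoter.

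Same-numbered columns are both legs of one mouse by the study's design, so animal was also fitted as a block. Deviations of both legs from their group means correlated at 0.003, -0.001, 0.135 and 0.087 in animals A to D. Alternatives were quantile normalization, median centring, the 75% of probe sets with the highest means, array weights, eBayes with its trend and robust options, leaving out saturated probe sets, animal as a fixed or random block, and leaving out each array.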

Additional observations from a re-analysis of the deposited data

Results flagged for a closer look

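In 22 groups of 4 arrays, covering *Mytho*, the 9 subunits and *Exoc4* minus the others, 1 had an array apart from the rest by Dixon's test at 95%, and chance alone gives about 1 in 20. This was *Mytho* in the MYTHO array of animal C, at a log2 signal of 8.80 against 8.08 to 8.20 in the other MYTHO arrays, a gap of 0.833 of the range. *Exoc4* on that array was 13.27, within the 13.04 to 13.29 of the MYTHO group. No subunit was set apart by this measure in either group.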

How the results depend on the processing

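The log2 fold change of *Mytho* passed in all 16 alternatives, and lay between -2.98 and -2.74 when 1 array was left out and between -2.85 and -2.77 in the others. That of *Exoc4* lay between -1.66 and -1.41 when 1 array was left out, between -1.56 and -1.49 in the others, and was -1.52 with the replicate block by animal, with an SE of 0.20. *Exoc4* minus the mean of the other 8 ran from -1.70 to -1.46 without single arrays, and was -1.59 after quantile normalization. At an unadjusted p under 0.05, 0 of the other 8 subunits were higher or lower in every alternative, and the 1 lower was *Exoc4*, which this contrast had picked. At an adjusted p under 0.05, *Exoc4* (0.0373) was lost with the replicate block (0.156) and without any 1 array other than scrmb D (0.0559 to 0.218), and was kept in the other alternatives (0.000451 to 0.0364). The count over all probe sets at that limma adjusted p was 6, 2 with the replicate block, and from 1 to 160 over all alternatives. The median of the other 8 lay between -0.017 and 0.067 (without MYTHO C) when 1 array was left out, and was 0.033 at most in the others.

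Among the lists, the count of 1 higher became 3 with the replicate block by animal, fixed or random, after quantile normalization or median centring, with array weights and with trend and robust, and 2 in the upper 75% of probe sets or without saturated probe sets. The count of 1 lower became 3 with trend and robust. Leaving out 1 array gave 1 to 5 higher (5 without MYTHO C, 2 without any 1 of the scrmb arrays) and 1 to 3 lower (3 without MYTHO D, 2 without MYTHO A, MYTHO B, scrmb A or scrmb D). The cause was not tested. *Rab11b* was called with trend and robust, at a limma adjusted p of 0.0455, with a range over its alternatives up to 0.374. With the replicate block no named gene other than *Exoc4* changed its call at an adjusted p. Other probe sets of a subunit could not be tried, since each had 1, and the block was by animal because the columns carry animal numbers.

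Signs reversed for 6 of 38 named genes, none of them called. *Exoc2* was 0.0025 after median centring and *Exoc7* 0.0344 with array weights. Without single arrays *Exoc1* ran from -0.181 to 0.0858, *Exoc2* from -0.129 to 0.0575, *Exoc7* from -0.25 to 0.15, *Exoc8* from -0.12 to 0.20, *Exoc3l* from -0.08 to 0.25 and *Slc35b4* from -0.13 to 0.36. Of the 27 named genes with a log2 fold change of at least 0.2 in size before rounding, 16 moved by over 1.5 times without some single array, none of them called. Apart from *Exoc4* and *Mytho*, of 604 values under alternatives, 585 kept direction and side, 18 reversed and 1 gained the call.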
